A study of Mus musculus with 6 samples.

Results

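The cells described here are neuron-like barcodes of the mouse mitral valve, found in single-cell libraries of valves from 3-week-old mice and seldom at later ages. A barcode was counted as neuron-like when it held at least 300 genes, at most 10% mitochondrial UMIs, and at least 10 UMIs of Stmn2, Prph and Cartpt together, with Stmn2 and Prph both detected. A UMI (unique molecular identifier) marks 1 captured RNA molecule. In all, 166 barcodes met the rule, of 53526 that passed the gene and mitochondrial filters and of 58351 deposited. The rule uses expression, so the levels of neuronal genes in these barcodes are given as a description and were not tested.

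The heart is innervated by sympathetic axons, by vagal preganglionic axons and by sensory axons. Its own nerve cell bodies lie in small intrinsic cardiac ganglia, mainly in the fat and connective tissue of the atria, and most of these ganglion cells use acetylcholine. Autonomic neurons derive from the neural crest under the transcription factors Phox2a, Hand2 and Gata3, and they are wrapped by satellite glia, which also derive from the neural crest.

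Valves were taken from K/B.g7 mice, labelled inflamed, and from B.g7 mice, labelled control, at 3, 8 and 25 weeks of age, and 1 library was made for each genotype at each age. K/B.g7 mice carry the KRN T cell receptor transgene together with the g7 allele of MHC class II and develop autoantibody-driven arthritis and inflammation of the mitral valve. B.g7 mice carry the g7 allele without the transgene. Valves were digested with collagenase and DNase, and live single cells were sorted. How many mice went into a library, and of which sex, is not stated in the labels. A difference between genotypes at 1 age therefore has no replicate.

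Total depth lay between 15196750 UMIs, in the 3-week library of B.g7, and 69152541 UMIs, in the 25-week library of K/B.g7, and median depths of kept barcodes ran from 2975 to 5703 UMIs. No barcode sequence of a neuron-like cell recurred among the neuron-like cells of another library, and 1 recurred among other kept barcodes. Over all kept barcodes, 291 sequences were shared between pairs of libraries.

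The neuron-like name was checked with 9 neuronal genes that the rule did not use, among them Npy, Snap25, Tubb3, Nefl, Nefm, Uchl1, Elavl4 and Gap43. At least 5 of them were detected in 94 of 100 barcodes of K/B.g7 and 37 of 40 of B.g7 at 3 weeks, and in 16 of 23 of K/B.g7 and 3 of 3 of B.g7 at 8 weeks. Under 3 were detected in 2 K/B.g7 barcodes of 3 weeks and 1 of 8 weeks, and these go against the name. The deepest of the 3, from 3 weeks and with 63325 UMIs, held 39 Stmn2 UMIs and 1 Prph UMI beside 693 UMIs of Acta2, the smooth muscle actin, 98 of the pericyte gene Rgs5 and 383 of Ly6c1, which endothelium carries. The other 3-week barcode, with 17499 UMIs, held 189 UMIs of Ccl21a, a chemokine of lymphatic endothelium, and the 8-week barcode held 93 Acta2 UMIs. Genotype differences at 3 weeks are given with and without these barcodes. Members just inside the threshold, with a marker sum of 10 to 12, numbered 2 (3 weeks) and 3 (8 weeks) in K/B.g7, and 3 (3 weeks) in B.g7. Barcodes just outside, with a sum of 7 to 9, numbered 6 (3 weeks) and 7 (8 weeks) in K/B.g7, and 1 at each of the 3 ages in B.g7. The mitochondrial maximum kept out a further 19 barcodes of K/B.g7 and 4 of B.g7 at 3 weeks that met every other condition.

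In K/B.g7 valves, neuron-like barcodes made up 1.75% of kept barcodes at 3 weeks (100 of 5727, exact binomial 95% interval 1.42 to 2.12%). They made up 0.247% at 8 weeks (23 of 9318, 0.157 to 0.37%) and 0 of 20151 at 25 weeks (0 to 0.0183%). In B.g7 valves they made up 1.06% at 3 weeks (40 of 3774, 0.758 to 1.44%) and 0.052% at 8 weeks (3 of 5771, 0.0107 to 0.152%). At 25 weeks they made up 0 of 8785 (0 to 0.042%). The intervals cover counting error only. The share was thus highest at 3 weeks in both genotypes, and since the cells were proposed as cells of young valves this order is a description. Levels are given as CPM, the UMIs of a gene per 1000000 UMIs of the summed barcodes. Over all kept barcodes of a library, Snap25, a vesicle fusion protein, had its levels in the same order, with K/B.g7 at 115, 6.81 and 0.03 CPM and B.g7 at 82.8, 2.31 and 0. Slc5a7, the choline transporter, was at 83.5, 1.82 and 0.015 in K/B.g7 and at 64.8, 1.62 and 0 in B.g7. At 3 weeks the neuron-like barcodes held 97.9% and 98.4% of Snap25 UMIs and 99.2% and 99.7% of Slc5a7 UMIs. These levels are therefore not independent of the counts of neuron-like barcodes. Npy did not keep this order, at 661, 16.5 and 61.5 in K/B.g7 and at 647, 19.5 and 49.1 in B.g7, and no neuron-like barcode was found at 25 weeks to hold it. Fewer nerve cells in the tissue and fewer captured in dissection or sorting cannot be told apart. Between genotypes, the share averaged 0.664 ± 0.945% over K/B.g7 libraries and 0.371 ± 0.597% over B.g7 libraries (SD, n = 3 each). The 3 libraries of a genotype differ in age, so the SD and the test include the fall in share with age. The difference of 0.294 percentage points did not pass an exact two-sided permutation test (p = 0.7, smallest possible 0.1), with K/B.g7 higher at 2 ages and both at 0 at 1 age.

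Neuron-like barcodes of 3 weeks made up most of the deepest barcodes of their libraries. Their median depth was 28912 UMIs in K/B.g7 and 24380 UMIs in B.g7, against 4381 and 3314 for the other barcodes, and they made up 70 of 87 and 24 of 37 barcodes with at least 20000 UMIs. At 8 weeks the medians were 3085 and 2939 UMIs. A depth of 10000 UMIs, set with earlier results known, was used to part them into a deep and a shallow range. Of the 3-week barcodes, 74 of K/B.g7 and 31 of B.g7 had at least 10000 UMIs, and 26 and 9 had fewer. At 8 weeks 6 and 1 were above that depth and 17 and 2 below it.

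The ranges also differed in what they held. Leaving out the barcodes with under 3 neuronal genes, the deep range had a median mitochondrial share of 6.24% in K/B.g7 (n = 72) and 5.2% in B.g7 (n = 31) at 3 weeks, and the shallow range had 0.0647% (n = 26) and 0.605% (n = 9). Malat1, a nuclear RNA, was at 8996 CPM in deep and 8350 in shallow K/B.g7 barcodes, but at 12054 and 214 in B.g7. A few barcodes set the shallow K/B.g7 value, since 211 of its 535 UMIs were in 1 barcode and 15 of 26 held none. Meg3, also nuclear, was at 1107 in deep and 172 in shallow barcodes of K/B.g7, and at 1436 and 0 in B.g7. Dcn, a collagen-binding proteoglycan of fibroblasts, ran the other way, at 64.8 in deep and 2263 in shallow K/B.g7 barcodes and at 12.9 and 1177 in B.g7. Of its 145 shallow K/B.g7 UMIs, 60, 56 and 21 were in 3 barcodes, and 18 of 26 held none. Stmn2, a tubulin-binding protein of growing axons that was part of the rule, was at 5620 in deep and 4854 in shallow K/B.g7 barcodes and at 5287 and 5350 in B.g7. Summed levels weight cells by depth, so that the deep range supplied 2608141 of 2753039 UMIs in K/B.g7 and 1239728 of 1249073 in B.g7 at 3 weeks. Whether shallow barcodes are whole cells was not tested.

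**Figure D1:**
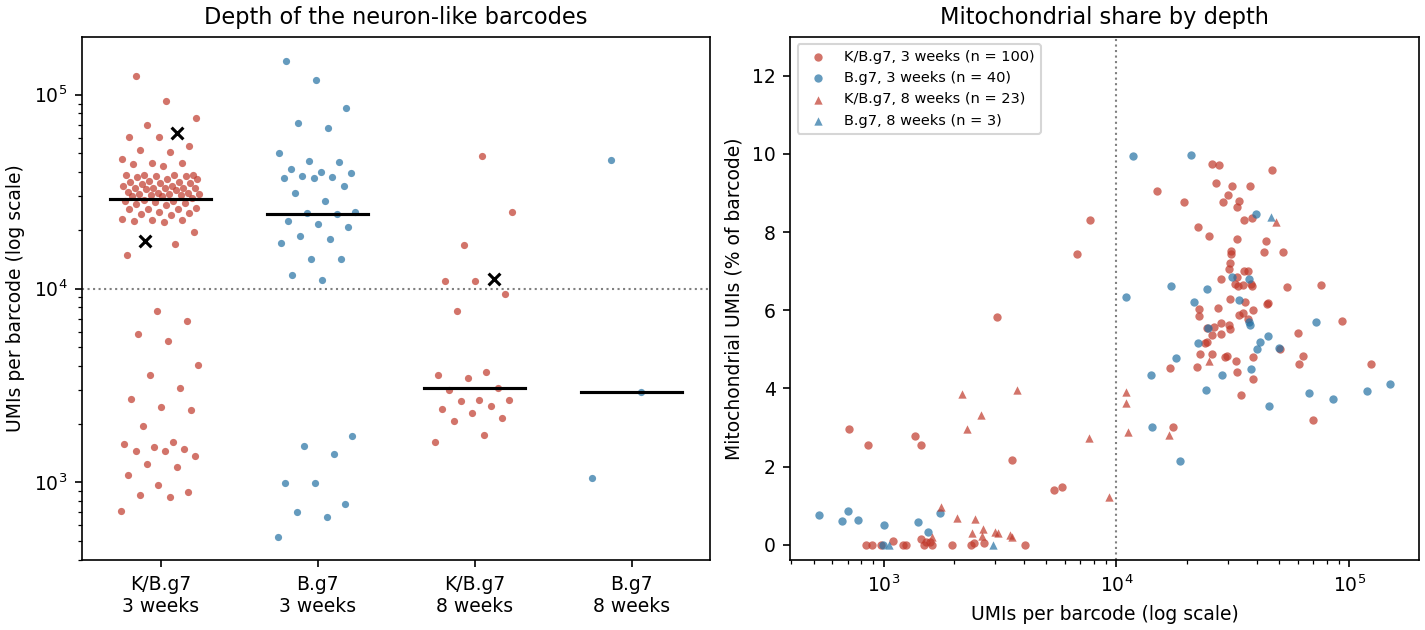
Left, UMIs of each neuron-like barcode by library on a log axis (points, with the median as a bar, and crosses for the 3 barcodes with under 3 of 9 neuronal genes). Right, mitochondrial UMIs in percent against UMIs, with circles for 3 weeks and triangles for 8 weeks. The dotted line marks 10000 UMIs, above which 74 K/B.g7 and 31 B.g7 barcodes of 3 weeks lie, mostly with over 3% mitochondrial UMIs.

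Over the summed UMIs at 3 weeks, with 20 CPM added to each value, 1030 of 4462 genes (23.1%) were at least 2-fold higher than in the other barcodes of the same library in both genotypes, and 876 (19.6%) were at least 2-fold lower. As the cells were chosen on neuronal genes, this is a description. The largest difference was that of Cartpt, the precursor of the CART peptide, at 4858 CPM in K/B.g7 and at 7011 in B.g7 neuron-like barcodes, against 7.24 and 5.08 in the others. Next came Pcsk1n, a granule protein that inhibits prohormone cleavage, Prph, the filament protein peripherin, Stmn3, Sncg, Tubb3 and Stmn2. Of the gene lists, all 22 pan-neuronal genes that passed the filter on low values were 2-fold higher, as were 15 of 15 for synaptic vesicles, 6 of 6 cholinergic, 8 of 8 noradrenergic and 12 of 18 oxidative phosphorylation genes. On the lower side stood 13 of 15 immediate early and heat shock genes, 3 of 5 MHC class I genes and 3 of 4 interferon-stimulated genes. Fos, an immediate early transcription factor, was at 1093 CPM in K/B.g7 and at 1147 in B.g7 neuron-like barcodes, against 4781 and 3405 in the others. B2m, the light chain of MHC class I, was at 83.5 and 92.9, against 321 and 301. A gene passed the filter on low values partly through the group in which it was high, so these counts support nothing on their own.

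Npy and Cartpt were the peptide genes with the most UMIs, and their promoters are shown beside those of Chodl and Gal, which ran opposite to them among these cells. Npy, neuropeptide Y, is a vasoconstrictor peptide of autonomic neurons (chr6:49822710-49829507 in mm10, plus strand), and Cartpt lies at chr13:99898489-99901091 on the minus strand. Chodl, chondrolectin, a membrane lectin of some motor neurons, lies at chr16:78930948-78951733 on the plus strand, and Gal encodes the peptide galanin. Each line holds the 250 bases before the RefSeq transcript start (GRCm38.p6, 5′ to 3′ on the gene's strand), at chr13:99900684-99900933, chr6:49822460-49822709, chr16:78930698-78930947 and chr19:3414545-3414794. Capitals mark TGACGTCA, the cAMP response element, which reads the same on both strands.
Cartpt: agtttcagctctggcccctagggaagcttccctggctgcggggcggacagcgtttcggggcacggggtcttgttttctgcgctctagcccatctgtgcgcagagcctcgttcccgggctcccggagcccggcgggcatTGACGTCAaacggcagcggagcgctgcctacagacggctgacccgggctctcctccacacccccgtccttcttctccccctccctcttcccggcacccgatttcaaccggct
Npy: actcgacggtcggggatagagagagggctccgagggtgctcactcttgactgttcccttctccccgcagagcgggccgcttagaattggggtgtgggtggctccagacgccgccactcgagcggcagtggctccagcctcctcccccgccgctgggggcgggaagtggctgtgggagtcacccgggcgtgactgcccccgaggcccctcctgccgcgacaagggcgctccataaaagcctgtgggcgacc
Chodl: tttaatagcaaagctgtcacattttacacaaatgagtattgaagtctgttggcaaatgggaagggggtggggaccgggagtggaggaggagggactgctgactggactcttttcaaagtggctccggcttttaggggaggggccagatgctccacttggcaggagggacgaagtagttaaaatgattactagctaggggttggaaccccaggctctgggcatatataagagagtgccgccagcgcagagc
Gal: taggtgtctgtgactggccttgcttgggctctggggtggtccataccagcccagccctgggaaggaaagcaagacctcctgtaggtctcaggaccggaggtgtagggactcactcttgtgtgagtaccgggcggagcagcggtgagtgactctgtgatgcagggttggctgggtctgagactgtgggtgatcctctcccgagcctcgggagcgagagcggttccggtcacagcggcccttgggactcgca
The element was searched in windows from 250 bases before to 50 after the start. It began 112 bases before the start of Cartpt and was not in the other windows shown. Of all 32851 promoters of the RefSeq table, 588 (1.79%) held it. Among the peptide and granule genes it was in 5 of 18 promoters found in the table (Cartpt, Chgb, Pcsk1, Scg2 and Sst), among noradrenergic genes in 2 of 8 (Slc18a2 and Th), and among cholinergic genes and autonomic transcription factors in 0 of 11 each. Both Cartpt, at 4858 CPM in K/B.g7, and Sst, somatostatin, with no UMI in any neuron-like barcode of either genotype at 3 weeks, are among the 5.

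Of 15 listed autonomic transcription factors 7 passed the filter, of which 5 were 2-fold higher and 1, Tbx20, 2-fold lower than in the other barcodes in both genotypes. Phox2a was at 737 CPM in K/B.g7 and at 759 in B.g7 neuron-like barcodes at 3 weeks, against 2.58 and 1.33 in the others. Isl1, which cholinergic and sensory neurons also use, was at 247 and 261, and Gata3 at 64.7 and 90.5. Hand2 was at 367 and 365, against 90.4 and 78.3 in the others, so that the others held this gene too. The homeobox gene Hmx2 was at 38.5 and 32.8 and Hmx3 at 32 and 28, while Tlx3 had no UMI. Of 30 Hox genes, which mark position along the body axis, none passed the filter, and Hoxc4, at 35.6 and 32.8 against 0.27 and 0.516 in the others, had the most UMIs. Mki67, a marker of dividing cells, had 0 UMIs in either genotype.

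Cholinergic transporter genes were detected in every deep barcode of 3 weeks, and Chat in most. Slc5a7 (chr17:54273590-54299034 in mm10, minus strand), which brings choline into the nerve ending, was at 863 CPM in K/B.g7 and at 767 in B.g7, against 0.77 and 0.221 in the others. Slc18a3, the vesicular acetylcholine transporter, was at 457 and 500.4, Ache, acetylcholinesterase, at 227 and 289, and Chat, which makes acetylcholine, at 32.3 and 53.6. Slc5a7, Slc18a3 and Chat together gave at least 14 UMIs in each of 72 deep K/B.g7 barcodes (median 45, maximum 179) and at least 13 in each of 31 of B.g7 (median 41, maximum 166). A Slc5a7 UMI was found in 72 of 72 and 31 of 31 deep barcodes (median depth 32758 and 33607 UMIs), against 0.323% and 0.0967% of fibroblast-marker barcodes (median depth 4600 and 3502 UMIs), which should lack it. Thinned to 10000 UMIs, the shares in deep barcodes were 99.8% and 99.8%. Chat was detected in 68.1% and 74.2% of deep barcodes, or 29.1% and 41.4% when thinned, and in 0.0431% and 0% of fibroblast-marker barcodes. Among receptors, the nicotinic subunits Chrna3 and Chrnb4 of autonomic ganglia were at 203 and 50.5 in K/B.g7 and 175 and 50.4 in B.g7. The muscarinic receptor Chrm2 was at 113 and 119.

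Part of the catecholamine pathway was present beside the cholinergic genes. Ddc, which turns DOPA into dopamine, was at 284 CPM in K/B.g7 and at 484 in B.g7. Th, the first enzyme of the pathway, was at 75.2 and 84.1, and Dbh, which makes noradrenaline, at 33.8 and 92.9. The transporters that load and recover noradrenaline were nearly missing. Slc18a2 had 4 and 0 UMIs, Slc6a2 had 0 and 0, and Pnmt, the enzyme of adrenaline, had 1 and 0. At least 2 UMIs of Th and Dbh together were found in 44 of 72 deep K/B.g7 barcodes and 14 of 31 of B.g7, and each of these also held at least 2 cholinergic UMIs. Th was detected in 63.9% and 51.6% of deep barcodes, or 41.8% and 30.8% when thinned to 10000 UMIs, and in 0.0215% and 0% of fibroblast-marker barcodes.

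Genes of sensory neurons were few. Trpv1, the capsaicin receptor, Scn10a, Pou4f1, Pou4f2, P2rx3 and Mrgprd had no UMI in neuron-like barcodes of either genotype at 3 weeks, and Avil, advillin, was at 106 in both. A count of 0 allows up to 1.09 CPM in K/B.g7 members and up to 2.4 in those of B.g7. Among other peptides, Sst, Adcyap1 and Grp had no UMI. Vip, a vasodilator peptide, had 153 and 30 UMIs, of which 127 and 30 came from a single barcode in each library. Nos1, neuronal nitric oxide synthase, had 52 and 31 UMIs, each from 1 barcode. Of the neurotrophic receptors, Ngfr was at 364 and 289.8, Ret, the signalling receptor of the GDNF family, at 299 and 271, and Gfra2, its partner for neurturin, at 141 and 103. Gfra1 and Gfra3 were at or under 0.801. Scn9a, a sodium channel of peripheral neurons, was at 155 and 176 against 0.154 and 0.0737 in the others, and Kcnq3, a potassium channel of the M current, at 161 and 155 against 0.154 and 0.0737.

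**Figure D2:**
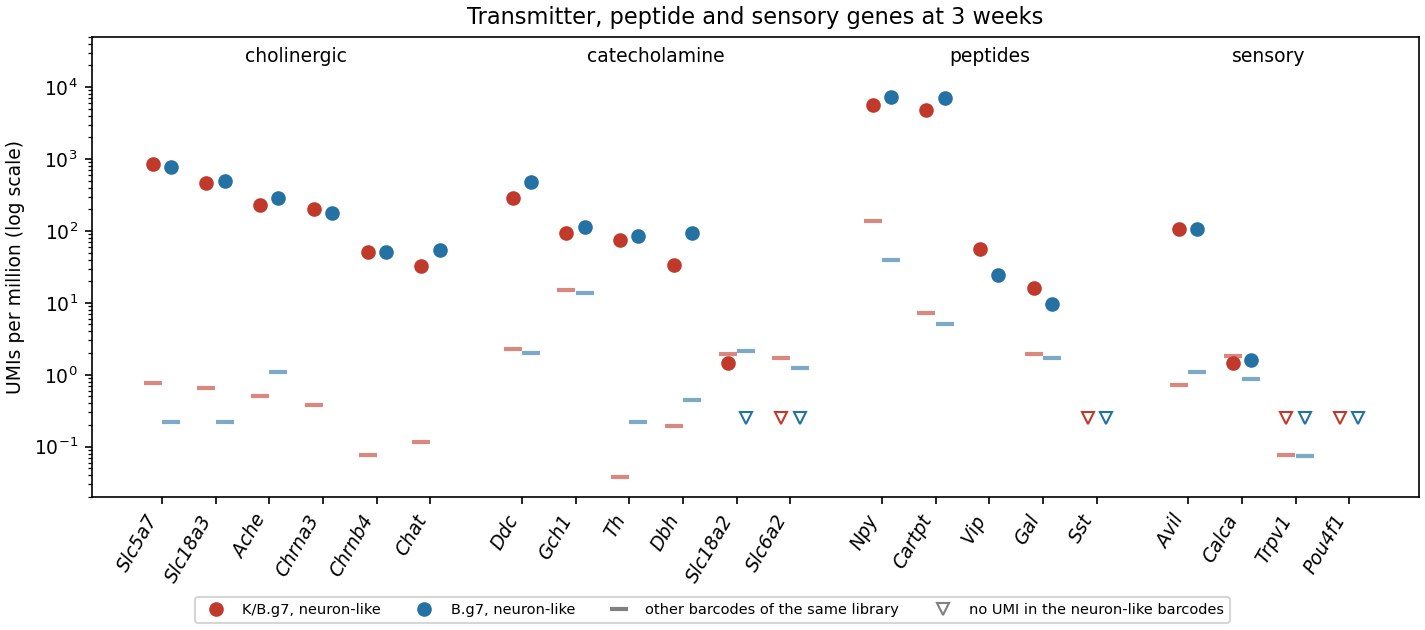
CPM (log axis) of transmitter, peptide and sensory genes in neuron-like barcodes at 3 weeks (circles), with the other barcodes of the same library as bars, K/B.g7 left of B.g7 for each gene, and open triangles for genes with no UMI. Slc5a7 is at 863 CPM in K/B.g7 and at 767 CPM in B.g7, while Slc6a2, Sst, Trpv1 and Pou4f1 have no UMI.

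Deep barcodes differed widely among themselves in Npy and Cartpt. Npy had a median of 60 UMIs per 10000 in K/B.g7 (range 0 to 118, n = 72) and 66 in B.g7 (range 0 to 139.5, n = 31). Its values left a gap, with 5 barcodes in K/B.g7 at or under 4.33 and the other 67 at or over 19.6, and with 5 in B.g7 at or under 7.03 and the other 26 at or over 27.1. Cartpt had a median of 42.6 (0.387 to 157) and 51.2 (0.481 to 224). Around a value of 10 per 10000, chosen after the data were seen, 60 K/B.g7 and 21 B.g7 barcodes lay above for both genes, 7 and 5 for Npy alone, 0 and 1 for Cartpt alone, and 5 and 4 below for both. By contrast Stmn2 spanned 31.7 to 79.1 and 31.3 to 85.6. Npy UMIs were also found in 13% and 3.84% of fibroblast-marker barcodes.

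**Figure D3:**
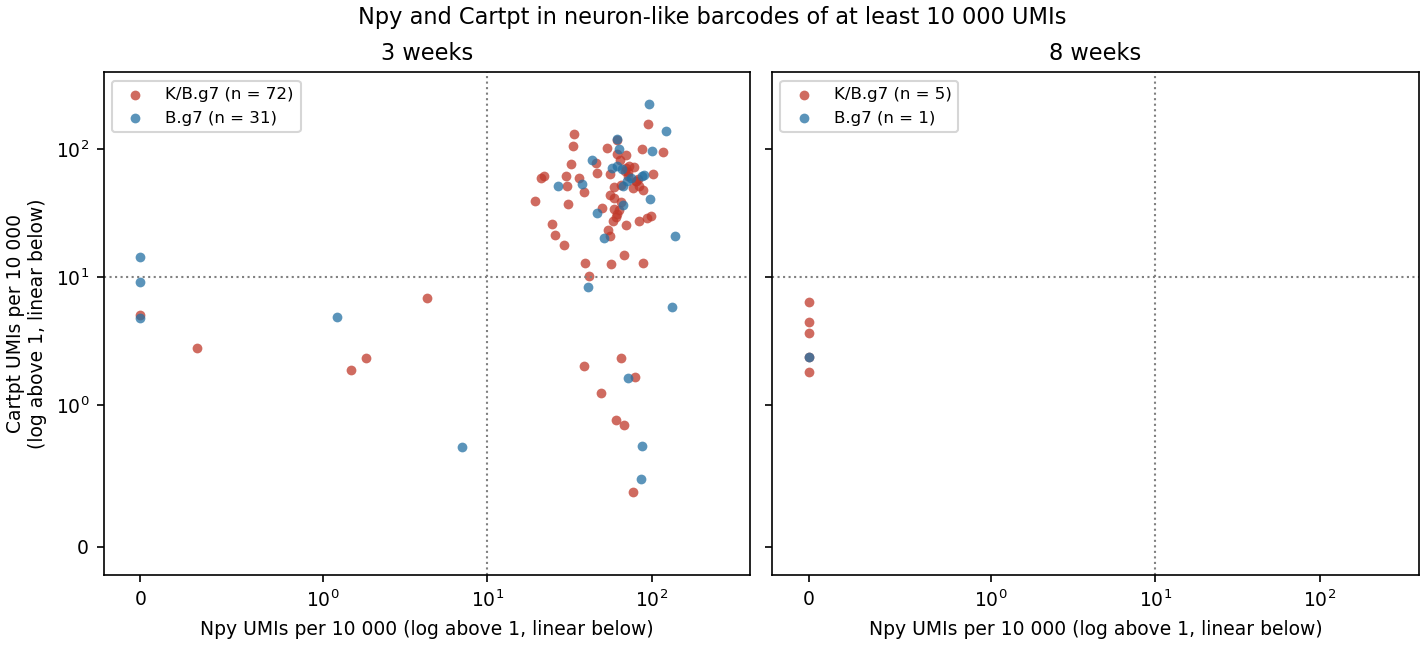
Cartpt against Npy in UMIs per 10000 in each neuron-like barcode with at least 10000 UMIs and at least 3 of 9 neuronal genes, at 3 weeks (left) and 8 weeks (right), on axes that are linear below 1 and logarithmic above it. At 3 weeks 60 K/B.g7 and 21 B.g7 barcodes lie above 10 (dotted lines) for both genes, and at 8 weeks all 6 lie at 0 for Npy.

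The deep barcodes low in Npy, 5 in each genotype, carried other genes at higher levels in both libraries. Chodl was at 412 CPM in the Npy-low and 13.9 in the Npy-high barcodes of K/B.g7, and at 259 and 19.2 in B.g7. It was detected in 5 of 5 and 8 of 67 barcodes of K/B.g7, and in 4 of 5 and 9 of 26 of B.g7. Gal was at 159.7 and 7.36 in K/B.g7 and at 64.6 and 5.23 in B.g7, and Pnoc, the nociceptin precursor, at 104 and 4.5 and at 96.9 and 0.872. Bmp3, a secreted protein of the TGF-beta family, and Nrp2, a semaphorin receptor, were also higher in both, at 172 against 11.9 and 55.3 against 3.68 in K/B.g7. Lower in the Npy-low barcodes were Ddc, at 24.6 and 312 in K/B.g7 and 32.3 and 518 in B.g7, and Gch1, which makes the cofactor of Th, at 18.4 and 99 and at 0 and 121. Ptger3, a prostaglandin E receptor, and Edn3, endothelin 3, had no UMI in the 10 Npy-low barcodes, against 102 and 75.2 CPM in Npy-high barcodes of K/B.g7 and 106 and 88.9 in B.g7. The range, and the 15 genes ranked in each direction, were picked after the values were seen and were not tested. The median depth was 32379 UMIs in Npy-low and 32895 in Npy-high barcodes of K/B.g7, and 14230 and 37296 in B.g7.

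At 8 weeks the deep neuron-like barcodes held no Npy, with 0 UMIs in 5 of 5 of K/B.g7 and in the 1 of B.g7, while some shallow barcodes were high in it. Npy took 23 of 1610 UMIs in 1 of 17 shallow K/B.g7 barcodes, and 16 of 2939 and 12 of 1055 UMIs in the 2 of B.g7, which lie above the value of 10 per 10000. Shallow barcodes, with a median mitochondrial share of 0.649%, supplied 56512 of 179699 neuron-like UMIs of K/B.g7 at 8 weeks. At 3 weeks they supplied 64074 of 2753039, so the ages differ in depth as well. Over all neuron-like barcodes of 8 weeks, Cartpt was at 356 CPM in K/B.g7 and at 339.9 in B.g7, where 3 weeks had 4858 and 7011. Chodl was at 289 (216 to 379) and 259.9 (138 to 444) at 8 weeks and at 36.7 (29.9 to 44.6) and 37.6 (27.6 to 50) at 3 weeks. Pam, which amidates peptides, was at 2126 and 3159, with 675 and 885 at 3 weeks. Phox2a, at 740.1 and 679.8, and Snap25, at 1336 and 1320, were within 1.5 times of their 3-week levels. Slc5a7 was at 395 (309 to 498) and 939.7 (690.5 to 1250), with 863 and 767 at 3 weeks, so that the B.g7 interval holds its 3-week level, and 46 of the 47 UMIs of B.g7 came from 1 barcode. The neurofilament gene Nefm was at 50.1 and 60, with 429 and 545 at 3 weeks. B2m at 8 weeks was at 506 CPM (408 to 622) in K/B.g7 and at 140 (56.3 to 288) in B.g7, with 1419 and 991 in the other barcodes. The same barcodes held RNA of other cells, and here too K/B.g7 was higher, with the fibroblast list at 3489 against 120. The mural list was at 751 against 0 and the endothelial list at 501 against 80. However, the 1 of 23 K/B.g7 barcodes that goes against the name held 125 of 135 mural and 81 of 90 endothelial UMIs. Without it, the mural list was at 8.93 in deep and 159 in shallow K/B.g7 barcodes, and the endothelial list at 26.8 and 106. The 1 deep barcode of B.g7 had the endothelial list at 86.9. The part of RNA of other cells in the B2m values was not tested. With 179699 UMIs in 23 barcodes of K/B.g7 and 50015 in 3 of B.g7 (46021 of them in 1 barcode), these values rest on few cells.

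**Figure D4:**
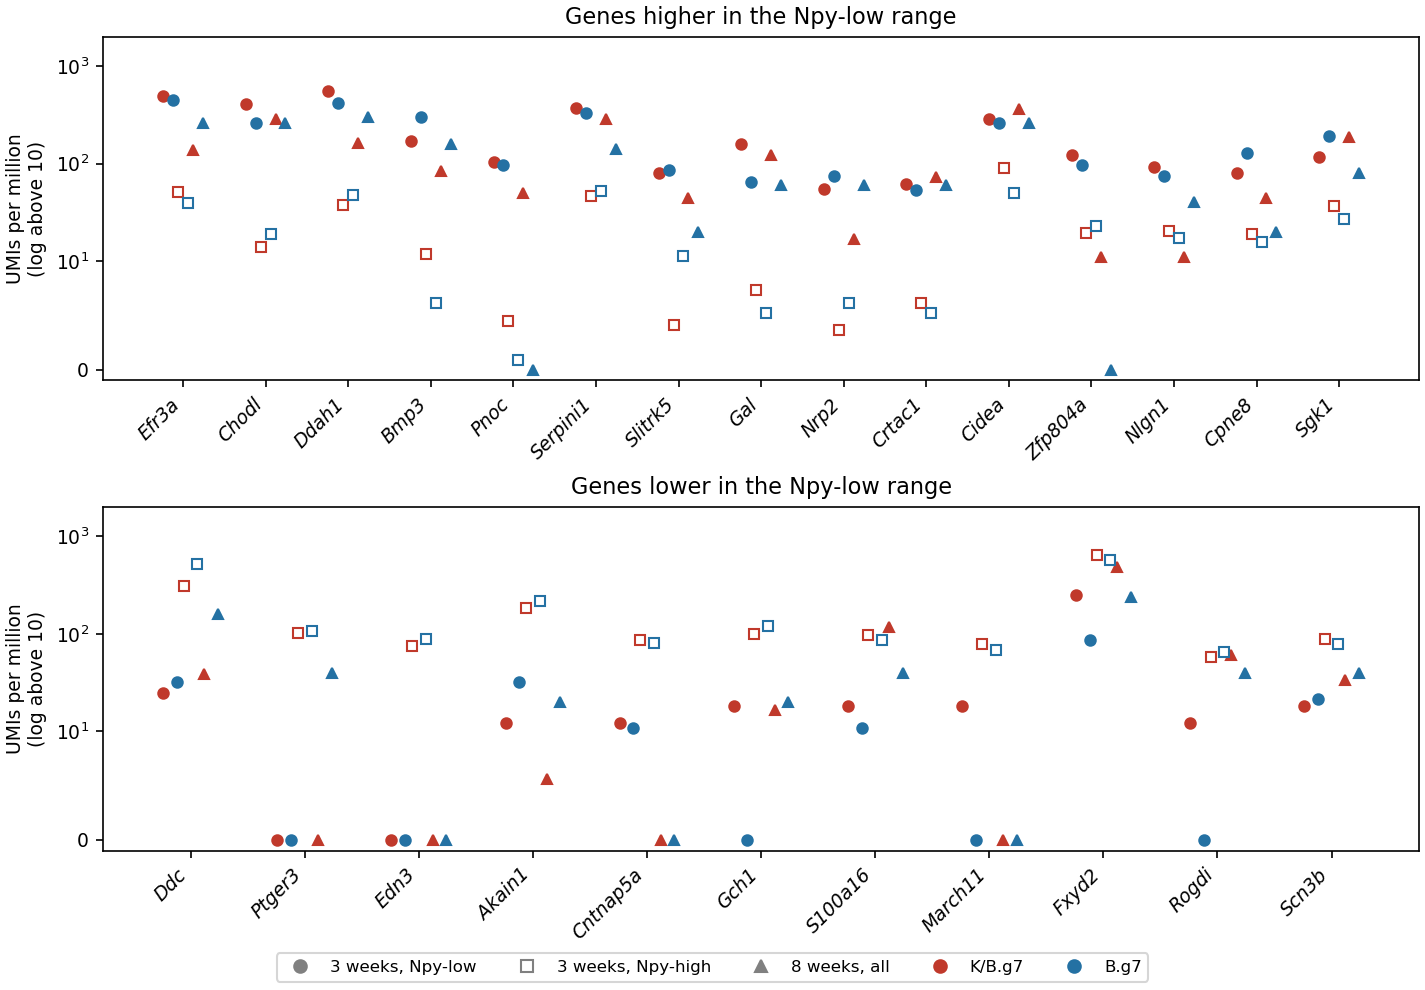
CPM (linear below 10, logarithmic above) of genes higher (top, 15) and lower (bottom, 11 of 13 plotted) in the Npy-low barcodes, in Npy-low (circles) and Npy-high (open squares) deep barcodes of 3 weeks and in all neuron-like barcodes of 8 weeks (triangles), with K/B.g7 left of B.g7. Chodl at 8 weeks lies at 289 in K/B.g7 and at 259.9 in B.g7, above the open squares, while Zfp804a lies below them.

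Glial RNA came with the neuron-like barcodes. The 11 listed glial genes, of which 11 were detected in each genotype at 3 weeks, summed to 1513 CPM in K/B.g7 and to 2469 CPM in B.g7 neuron-like barcodes, against 151 and 179 in the others and 13348 and 13481 in glial-like barcodes. Per 10000 UMIs of a deep barcode, the sum had a median of 8.9 in K/B.g7 (range 0 to 64.6) and 19.4 in B.g7 (1.67 to 73.2), and the ranges overlapped. Fabp7, a fatty acid carrier of immature and satellite glia, was at 1117 and 1840 CPM. It was detected in 81.9% and 96.8% of deep barcodes, or 72.9% and 94.1% at 10000 UMIs, against 1.16% and 0.709% of fibroblast-marker barcodes. Whether these UMIs come from glia in the same droplet was not tested. Scrublet's highest scores, left out as predicted doublets in an alternative, fell on 15 of 100 neuron-like barcodes of K/B.g7 and 5 of 40 of B.g7, where the whole libraries had 262 of 5727 and 114 of 3774. Several lists were near 0. The 7 immune genes summed to 1.09 and 2.4 CPM, with Ptprc at 0 in K/B.g7, the 6 melanocyte genes to 2.54 and 3.2 with Dct at 0 in both, and the 7 cardiomyocyte genes to 14.5 and 9.61. The mural list was at 398 and 5.6 and the endothelial list at 238 and 67.2, below the other barcodes of their libraries. The 5 conduction genes summed to 94.8 and 83.3, higher than the 24.9 and 31.3 of the others. Neuron-like barcodes of K/B.g7 held UMIs of 4 of them, all but Shox2. Those of B.g7 held only 2, Tbx3 and Cacna2d2, with Hcn4, Shox2 and Cacna1g at 0. The 6 adrenal chromaffin genes were also higher, at 336 and 437 against 0.732 and 16.7. All 6 chromaffin genes are also in the noradrenergic or the peptide and granule list, and Pnmt, the enzyme particular to adrenaline, had 1 and 0 UMIs.

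Between genotypes at 3 weeks, neuronal genes differed by less than 2-fold with few exceptions. Of 3395 genes with at least 20 UMIs over both libraries and 50 CPM in the higher one, 56 (1.65%) were at least 2-fold apart, of which 46 (1.35%) were higher and 10 (0.295%) lower in K/B.g7. The median log2 ratio of all genes was 0.01. Most UMIs behind the largest ratios came from the barcodes that go against the name. Acta2 had 781 UMIs in K/B.g7 members and 4 in those of B.g7, with 693 in 1 barcode, and Ly6c1 had 391 and 2, with 383 in that same barcode. Tpm2, Tagln and Myl9, contractile genes of smooth muscle, had 82% to 93.5% of their K/B.g7 UMIs in 1 barcode. Without the 2 such barcodes, 27 genes (0.805% of 3355) were past 2-fold, 16 higher and 11 lower, and 24 of them were among the 56. With each barcode given equal weight, which lifts the shallow ones, 354 were past 2-fold, 127 higher and 227 lower.

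Of the 16 higher genes, Dcn, Mgp, Col1a1 and Col3a1 are matrix genes of fibroblasts. Dcn was at 118 CPM in K/B.g7 and at 21.6 in B.g7 (ratio 5.44, 95% interval 3.67 to 8.38, counting error only), and it was detected in 50 of 98 and 15 of 40 barcodes, with 9526 and 10607 in the others. Over all members its log2 ratio was 2.38, and it was 1.74 without members rich in fibroblast RNA and 0.15 with each barcode given equal weight. Dcn is itself 1 of the 6 genes by which those members were left out, so the value of 1.74 is a description. Over the whole fibroblast list of 6 genes the sums were 424 and 143, with Pdgfra at 0 in B.g7, and its part in these ratios was not tested. Gstp1, a glutathione transferase with near-identical copies that makes its count uncertain, was at 217 and 55.2 (ratio 3.94, 3.06 to 5.13). It was detected in 77 of 98 and 22 of 40 barcodes, and it also differed in the other barcodes, at 99.1 and 33.1. Of the 16 higher genes, 11 were also higher in the other barcodes, 5 of them past 2-fold. Of the 11 lower genes, 7 were also lower there, 1 of them past 2-fold. Of all 3395 genes counted, 1772 were higher and 1623 lower in the other barcodes. How many of those were past 2-fold is not given, so the counts of 5 and 1 are a description. Fosb, at 63.2 and 28.8, and Ier3, at 99.9 and 44, were the immediate early genes past 2-fold.

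On the lower side, Dbh was at 34.8 CPM in K/B.g7 and at 92.9 in B.g7 (ratio 0.375, 0.282 to 0.497). Of its 116 UMIs in B.g7, 50 came from 1 barcode, and it was detected in 27 of 98 and 15 of 40. Calb1, a calcium-binding protein of neurons, was at 21.3 and 68.1 (0.313, 0.22 to 0.444), detected in 24 of 98 and 18 of 40 barcodes. Cxcl10, an interferon-induced chemokine, was at 28.1 and 79.3, but 72 of its 99 UMIs in B.g7 came from 1 barcode. Apoe, a lipid carrier that satellite glia make in quantity, was at 3163 and 6332 over all members (0.5, 0.485 to 0.515), beside the lower glial sum in K/B.g7 given above. The other barcodes of the libraries held more Apoe, at 7905 and 8291. The part of RNA from glia or from other cells in this ratio was not tested.

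By list, none of 22 pan-neuronal genes was past 2-fold, with a median log2 ratio of -0.14 (7 higher, 15 lower), and none of 6 cholinergic genes (median -0.07). The 15 vesicle genes had a median of 0.06, the 9 neurotrophic receptors 0.22 (7 higher), and the 7 autonomic transcription factors -0.04. Of 8 noradrenergic genes (median -0.19) 1 was past 2-fold, Dbh, and of 12 peptide and granule genes (median -0.14) 1, Vip. MHC class I and immunoproteasome genes, which interferon raises, had a median of 0.01, with H2-D1 at 124 and 128 and H2-K1 at 59.2 and 58.4 CPM. Oxidative phosphorylation genes had a median of -0.36, the lowest of the 13 lists in summed counts, with 15 of 18 lower in K/B.g7. Cox6c, a subunit of complex IV, was at 889 and 1446 CPM, and Uqcrq, of complex III, at 730.1 and 1165. In the other barcodes of the same libraries the same genes had a median of -0.21, with 13 of 18 lower, and all 3395 genes 0.02. The 15 immediate early and heat shock genes had a median of -0.22 in neuron-like barcodes (6 higher, 9 lower) and 0.22 in the others, and this difference was not tested. With each barcode given equal weight, the medians were -0.66 for cholinergic genes, -0.54 for autonomic receptors, -0.44 for peptide and granule genes and -0.35 for oxidative phosphorylation genes, so that the order of the lists rests on the weighting.

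**Figure D5:**
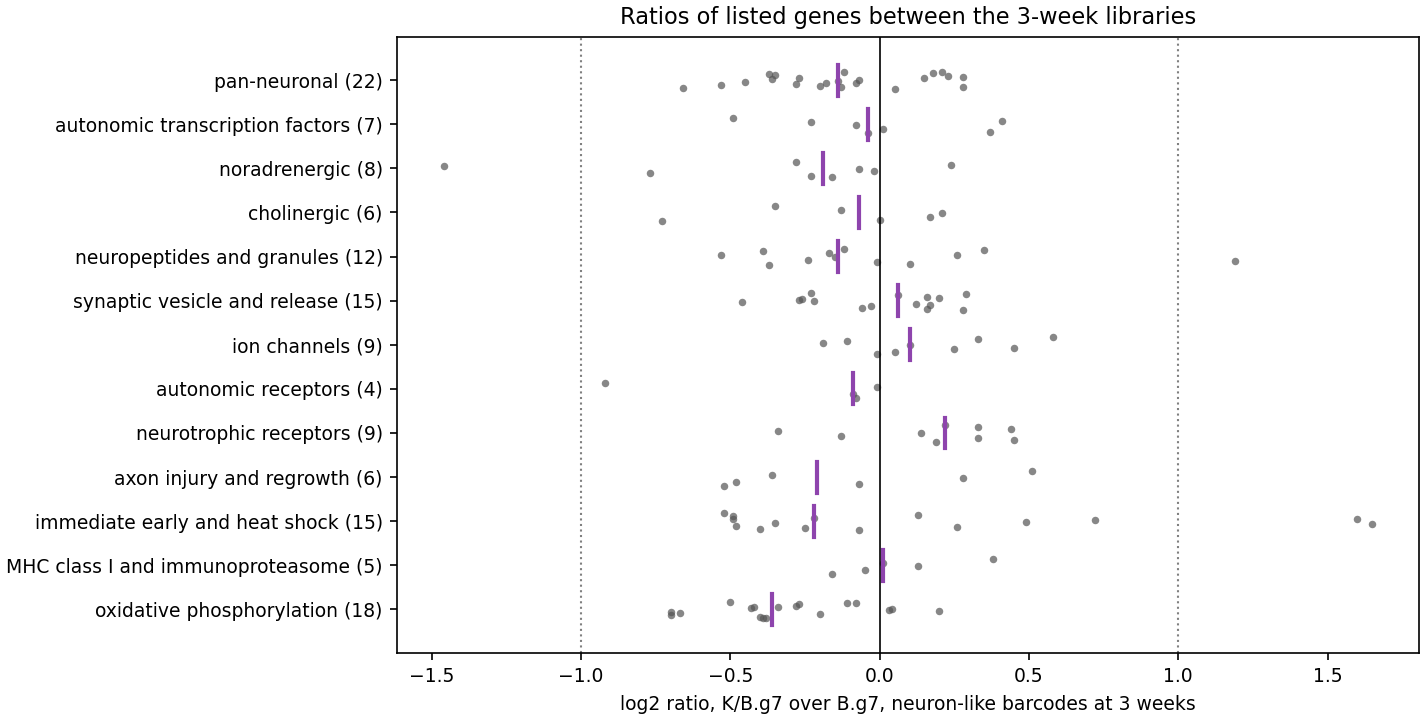
log2 ratio of K/B.g7 over B.g7 for each listed gene that passed the filter (points) in neuron-like barcodes at 3 weeks, by list, with the list median as a bar, the number of genes in parentheses and dotted lines at 2-fold. Dbh, Vip, Fosb and Ier3 lie past the lines, and list medians run from -0.36 to 0.22.

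Xist, the RNA that silences an X chromosome in female cells, was detected in 72 of 72 deep neuron-like barcodes of K/B.g7 and 31 of 31 of B.g7 at 3 weeks, and a Y-linked gene in 2 and 0. Among other barcodes with at least 10000 UMIs in the same libraries, Xist was in 66.5% of 161 and 54.2% of 59, and a Y-linked gene in 37.9% and 50.8%. These others were shallower, with median depths of 12009 and 13963 UMIs against 32758 and 33607, and detection depends on depth. The libraries thus held cells of both sexes, while deep neuron-like barcodes carried Xist throughout. At 8 weeks 4 of 5 deep K/B.g7 barcodes had Xist and none a Y-linked gene, and the 1 of B.g7 had a Y-linked gene and no Xist. The number of mice behind the neuron-like barcodes cannot be told from these values.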

How the data were processed

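Mitral valve cells of 6 libraries, 1 per genotype and age, were sequenced with a 10x Genomics single cell 3′ v2 kit, per the labels' protocols. The mm10 build and Cell Ranger 3.1.0 are named in the submitters' processing notes, while no annotation version is given in the sources used here. As processed values the authors deposited raw counts, which are whole numbers of UMIs for each of 31053 genes in each barcode. A 3′ UMI counts molecules and needs no scaling by length.

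Barcodes were kept from 300 genes upward and up to 10% mitochondrial UMIs. UMIs of the neuron-like barcodes were summed per library and scaled to CPM, per 1000000 UMIs. With 1 library per genotype and age no gene was tested. Ratios carry exact conditional binomial 95% intervals, shares carry exact Clopper-Pearson intervals and CPM values carry exact Poisson intervals, all of counting error only. The recovery of ratios and their intervals was tested on simulated Poisson counts. Those counts had no spread between barcodes, so the simulation cannot show how the intervals cover real barcodes that differ. List medians used a pseudocount of 0.5 UMIs. A count of 0 was read against a floor of 3 counts summed over the barcodes. Shares of barcodes with a UMI were also computed after thinning to 2000 or 10000 UMIs. The share of neuron-like barcodes was compared between genotypes over 3 and 3 libraries, with the ages in place of replicates. The p-value thus rests on a spread that includes the fall with age, and not on replicate libraries. Glial-like barcodes held at least 5 UMIs of 3 glial genes, Cdh19 and Sox10 among them, and fibroblast-marker barcodes at least 20 UMIs of 6 fibroblast genes.

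Scrublet (scanpy 1.11.5) marked 67 of 53526 barcodes (0.125%) by its automatic threshold, which was not used. As an alternative the 5203 barcodes of highest score were left out, at 0.8% per 1000 barcodes. Named genes were the listed genes, the 12 per direction of the largest genotype ratio with at least 100 CPM, leaving out mitochondrial, ribosomal, sex-linked and unnamed genes, and the 30 of the largest fold against other barcodes. Genes named beyond this, among them those past 2-fold after leaving out barcodes and those of the Npy-low range, were chosen after their values were seen. Some genes are not reported here. The members and gene lists were chosen with earlier results of these data known. Gene positions are from GENCODE M21 on mm10, and promoters from a RefSeq table of GRCm38.p6. Computation used scipy 1.17.1, pandas 2.3.3 and numpy 2.4.6 in Python 3.11.15, matplotlib 3.10.9 for figures and edgeR 4.0.16 in R 4.3.3 for TMM scaling.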

Additional observations from a re-analysis of the deposited data

How the results depend on the processing

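The genotype difference in share, 0.294 percentage points, stayed between 0.0974 (without the libraries of 3 weeks) and 0.441 (without those of 25 weeks), and no test over these libraries could reach 0.05. With pairs of the same age as a replicate block, the difference was 0.294 and the exact sign-flip p 0.5 over 8 flips. The count of 56 genes past 2-fold at 3 weeks was 354 (127 higher, 227 lower) with the mean over cells in place of summed counts, 27 (17 higher, 10 lower) without members with over 0.2% mural and endothelial UMIs, 27 (16 higher, 11 lower) without members with under 3 independent neuron markers, 4349 with no filter beyond 1 UMI and 11 at 50 UMIs and 200 CPM. The mean over cells weights shallow barcodes as much as deep ones, and why its split turned was not tested. Of the 24 genes named by the ratio, 13 were past 2-fold, and 8 without the mural and endothelial members. Other settings, doublets and fibroblast-rich members left out and TMM scaling among them, gave 49 to 62 genes. From 9 to 11 of 13 list medians were below the all-gene median, and 872 (against glial-like barcodes) to 1211 (5 CPM added to each value) genes were 2-fold higher than in the comparison barcodes. Leaving out members by mural and endothelial UMIs or by independent neuron markers, the 20% mitochondrial maximum and the deep barcodes alone (55 genes) were chosen after the data were seen. Shallow depth limits the 8-week values, where 3 counts are 16.7 CPM in K/B.g7 members and 60 CPM in those of B.g7.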
